A study of Homo sapiens with 4 samples.

Results

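The CDKN2A and CDKN2B locus on the short arm of chromosome 9, band 9p21, was followed in Hi-C contact maps of IMR90 cells, an established line of human lung fibroblasts. The locus was taken as the 2 bins of the deposited bin list (about 200 kb each, hg19) that overlap MTAP, CDKN2A, CDKN2B and CDKN2B-AS1. With 10 bins on each side the window held 22 of the 14444 bins of the series. The locus was selected on 1 measured value, the OIS minus Grow difference in contact of the CDKN2A bin with distal B bins, so that value is a description. All cells of the series carried ER:HRAS G12V from the retroviral vector pLNCX2, an oncogenic HRAS that works only in the presence of 4OHT. In the OIS-shA1 group (labelled RIS), 100 nM 4OHT for 6 days led to oncogene-induced senescence, and Grow-shA1 cells grew without it. Both groups also carried pMSCV miR shHMGA1 (shA1), a hairpin against HMGA1, an architectural chromatin protein that prefers AT-rich DNA. Each group had 2 samples, which were pooled in 1 map. The Grow and OIS maps, without the hairpin, were made earlier by the same group and match none of the 4 samples. Hence shA1 and the data set cannot be told apart in any comparison of a map with shA1 and a map without it.

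Hi-C joins cut chromatin ends that are near each other in fixed nuclei, and the number of such junctions between 2 regions measures how often they meet. At this resolution chromosomes divide into an A compartment, rich in active genes, and a B compartment, rich in silent and lamina-bound chromatin, and each meets mainly its own kind. CDKN2A encodes p16INK4A and, from another first exon, p14ARF. The former inhibits CDK4 and CDK6 and so keeps RB active, and the latter binds and inhibits MDM2. CDKN2B encodes p15INK4B, another CDK4 and CDK6 inhibitor. MTAP encodes an enzyme of methionine salvage, and CDKN2B-AS1 (ANRIL) is a long non-coding RNA that runs through CDKN2B. The locus is held silent by Polycomb proteins in young growing fibroblasts and is known for its activation in oncogene-induced senescence.

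The bins end at HindIII sites, the sequence at which the chromatin was cut, so these sites decide which gene lies in which bin. The 3 edges of the locus bins are shown with 30 bases each (GRCh37, plus strand), with the HindIII site in capitals.
Left edge of the CDKN2A bin, chr9:21799744-21799773: ttagctttttcacaAAGCTTccaatgtggg
Edge between the locus bins, chr9:22008493-22008522: cttcttccctaaatAAGCTTtccttttctc
Right edge of the second locus bin, chr9:22197187-22197216: ccaccatttaagacAAGCTTtcgcttctcc
The first bin, chr9:21799759-22008507, is called the CDKN2A bin. It holds MTAP (ENSG00000099810, 21802635 to 21937650, plus strand) and CDKN2A (ENSG00000147889, 21967751 to 21995300, minus strand) whole. It also holds 87.6% of CDKN2B (ENSG00000147883, 22002902 to 22009304, minus strand). The second bin, chr9:22008508-22197201, is called the CDKN2B start bin. It holds the remaining 12.4% of CDKN2B with its start of transcription, and 89.3% of CDKN2B-AS1 (21994138 to 22128102, plus strand). The edge between the bins lies in an intron of CDKN2B and in an intron of CDKN2B-AS1, whereas the outer edges lie in no annotated gene. A contact of CDKN2B is thus divided between both bins, and no value below belongs to 1 gene alone. The CDKN2A bin had a GC content of 40.3% and 60 HindIII sites, and the CDKN2B start bin 38.3% and 63 sites, against medians of 39.7% and 59 over the 13606 bins that were kept.

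On the upstream side, towards the short-arm end, the 10 flanking bins hold the starts of 20 coding genes. These are MLLT3, a subunit of elongation complexes, FOCAD, HACD4, KLHL9 and the 16 type I interferon genes from IFNB1 to IFNE, whose starts lie in 3 bins. The 10 downstream bins hold 2 coding gene starts, DMRTA1 and ELAVL2, the latter a neuronal RNA-binding protein, and are called the gene-poor flank. Each value is the score that the authors gave a pair of bins against the mean of its distance, on a logarithmic scale of unstated base. Hence differences are in score units and not in folds. There was 1 map per condition, so the spread between replicates is unknown and no test was made. An SD is given over bin pairs, which are not replicates. Over all pairs 1 to 10 bins apart with a value in every map, the OIS minus Grow difference was -0.15, and it was -0.10 with shA1. Over all such pairs 11 to 200 bins apart the values were -0.096 and -0.074. Local differences of the locus are to be read against the first shifts and distal differences against the second.

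In Grow the locus was the end of a short A stretch that began at the bin of IFNA8, IFNA1 and IFNE, with B chromatin after it. The compartment score, the loading of a bin on the first principal component of chromosome 9 (A positive, B negative), was 0.57 in Grow, 0.88 in OIS, 0.64 in Grow-shA1 and 0.70 in OIS-shA1 for the CDKN2A bin. For the CDKN2B start bin it was 1.43, 1.24, 1.44 and 1.13. Both bins were in A in every map, and the CDKN2B start bin had the higher score in each. The bin just outside the locus on the upstream side scored 1.26, 1.24, 1.31 and 1.19 in the same order of maps. The bin just outside on the downstream side scored -0.77, -0.71, -0.60 and -0.75. The A to B border thus lay at the right edge of the CDKN2B start bin in all 4 maps, to within 1 bin. All 10 downstream bins were in B in each map, with scores in Grow from -1.02 to -0.77 and in OIS from -1.29 to -0.71.

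**Figure D1:**
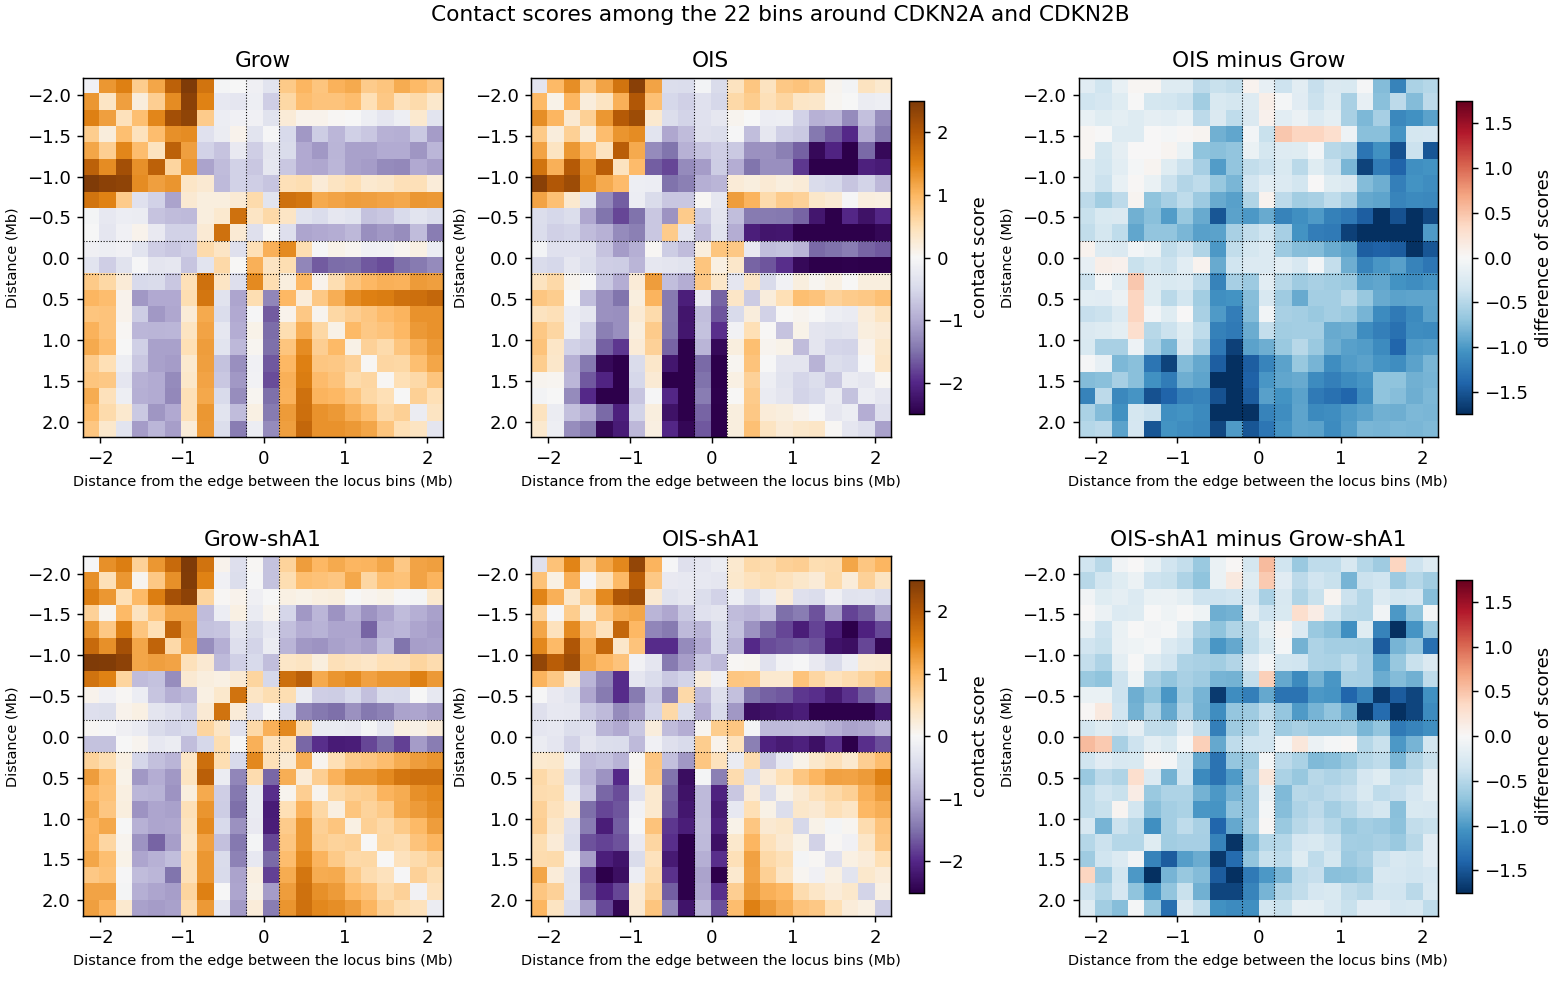
Contact scores among the 22 bins in the 4 maps (left and middle panels), and the RAS differences without and with shA1 (right panels). Both axes give the distance from the edge between the locus bins in Mb, and dotted lines bound the locus. The block of the gene-poor flank with itself and its stripes with the locus were lower in OIS, with a mean difference of -0.90 and -0.94.

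Within the locus, contact of the CDKN2A bin with the CDKN2B start bin was well above the mean of its distance in each map. The score was 1.06 in Grow, 0.82 in OIS, 1.07 in Grow-shA1 and 0.73 in OIS-shA1. Both senescent maps lay below both growing maps. OIS minus Grow was -0.23, against -0.15 over all local pairs and 0.067 over local A-A pairs of the genome. With shA1 it was -0.34, against -0.10 and -0.024. This pair of A bins was thus lower than its class in both backgrounds.

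The main local difference was with the gene-poor flank. The CDKN2A bin met these 10 bins with a mean score of 0.19 in Grow (SD 0.47 over pairs), -0.96 in OIS (SD 0.77), 0.16 in Grow-shA1 (SD 0.51) and -0.64 in OIS-shA1 (SD 0.58). Both growing maps were thus slightly above the mean of the distance and both senescent maps well below it. OIS minus Grow was -1.15, and all 10 pairs were lower in OIS. The CDKN2B start bin, in contrast, already met the gene-poor flank rarely in Grow, with a mean score of -1.31 in Grow, -2.05 in OIS, -1.50 in Grow-shA1 and -1.80 in OIS-shA1. Its OIS minus Grow difference was -0.73, with all 10 pairs lower. In Grow, therefore, a mean score with the gene-poor flank well below 0 was seen for the CDKN2B start bin and not for the CDKN2A bin. In OIS it was seen for both.

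Both locus bins had a score above 0 with the first downstream bin, next to the locus, in every map. The CDKN2A bin met it with 1.42 in Grow, 0.79 in OIS, 1.43 in Grow-shA1 and 0.81 in OIS-shA1. With the bin of DMRTA1, the second one, the scores of the CDKN2A bin were 0.52, -0.22, 0.53 and -0.041 in the same order. From the CDKN2B start bin they were -1.32, -1.59, -1.58 and -1.38. The bin that holds the start of ELAVL2, about 2 Mb from the CDKN2A bin, met it with 0.14, -1.58, 0.13 and -1.03. This last pair had an OIS minus Grow difference of -1.73, the most negative of all pairs of the locus bins within the window.

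The difference was uneven along the gene-poor flank, a split that was chosen after the values were seen. For both locus bins together, the first 5 bins had a mean OIS minus Grow difference of -0.57 and the last 5 bins -1.31. With shA1 the RAS differences were -0.30 and -0.80. OIS-shA1 minus OIS was 0.018 for the first 5 bins, where 6 of 10 pairs were higher with shA1. It was 0.54 for the last 5 bins, where 9 of 10 pairs were higher. The exception was the pair of the CDKN2B start bin with the bin before that of ELAVL2, at -2.47 in OIS and -2.83 in OIS-shA1. Over all 20 pairs the mean score was -0.56 in Grow, -1.50 in OIS, -0.67 in Grow-shA1 and -1.22 in OIS-shA1. The RAS difference was hence -0.94 without shA1 (SD 0.47 over 20 pairs) and -0.55 with it (SD 0.41). Over all local A-B pairs of the genome the RAS differences were -0.22 and -0.19. For the locus, the difference between both RAS differences was 0.39 and was positive in 18 of 20 pairs. A constant shift between older and newer maps cancels in it, but a difference in depth or scale does not. It also contains the OIS score with its sign turned, so a low OIS score raises it.

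**Figure D2:**
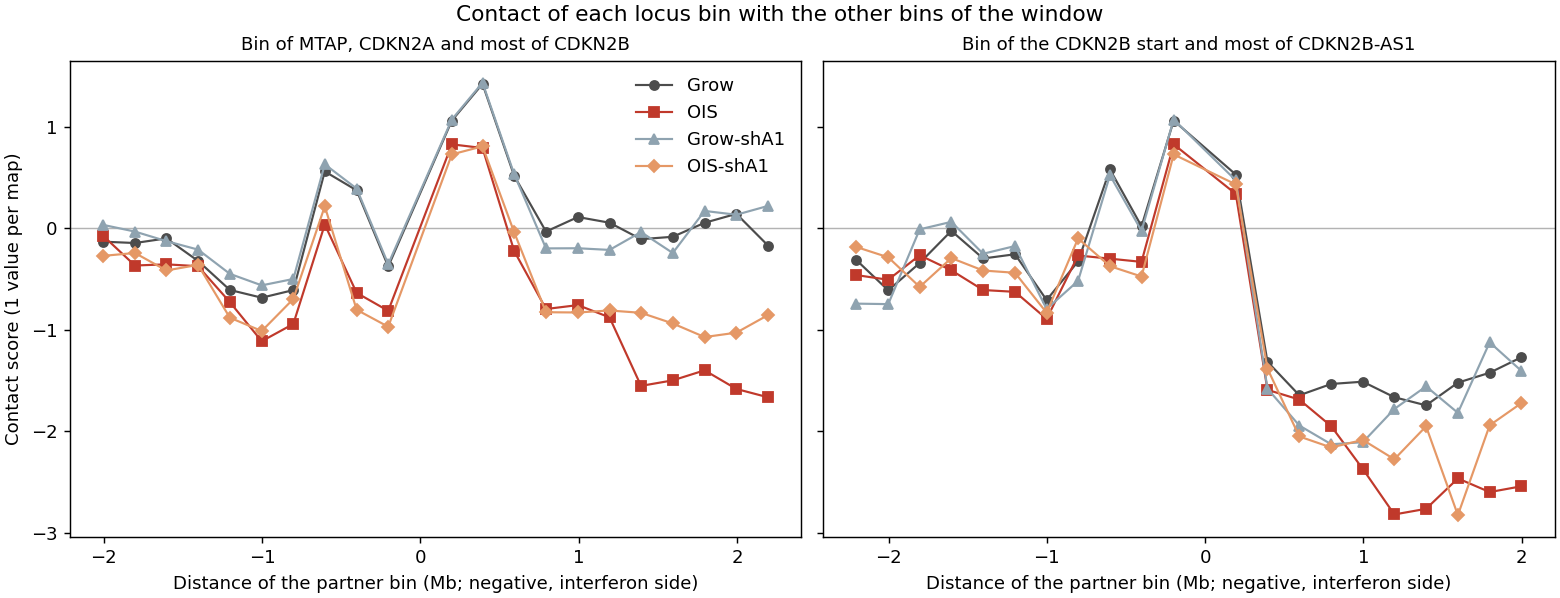
Contact score of the CDKN2A bin (left) and of the CDKN2B start bin (right) with each other bin of the window against the distance in Mb, 1 value per map and pair. The CDKN2A bin was near 0 with the gene-poor flank in both growing maps and between -0.76 and -1.67 in OIS from the third downstream bin on. The CDKN2B start bin was at -1.13 or below there in all 4 maps.

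Set against all bins of the genome, the contact with the following 10 bins was lower by at least 0.25 in OIS for 36.6% of 13371 bins. Both locus bins were among them. For the CDKN2A bin, OIS minus Grow with its following 10 bins, here including the CDKN2B start bin, was -1.02. It lay at percentile 1.67 of all bins, whose median was -0.11 (SD 0.37). The CDKN2B start bin, at -0.73, lay at percentile 7.0. With the 10 bins before, 36.4% of bins were lower by at least 0.25. The values of -0.33 and -0.25 for the CDKN2A and CDKN2B start bins lay at percentiles 29.5 and 36.6. Thus the downstream side of the CDKN2A bin stood far out in the genome-wide distribution and the upstream side did not. Apart from the CDKN2B start bin, its following bins are B bins. The CDKN2A bin was selected on its contact with B bins farther away, so its percentile is a description and not independent of the selection.

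On the upstream side the locus met the 10 flanking bins with a mean score of -0.22 in Grow, -0.50 in OIS, -0.19 in Grow-shA1 and -0.47 in OIS-shA1. OIS minus Grow was -0.29 (SD 0.29 over 20 pairs, 16 lower), and with shA1 it was -0.28. The difference between both was 0.0080. The bins with interferon genes, which encode secreted antiviral cytokines, had a mean OIS minus Grow difference of -0.48 over 6 pairs. The bin of IFNA8, IFNA1 and IFNE made up most of it. Its score with the CDKN2A bin was 0.37 in Grow, -0.64 in OIS, 0.39 in Grow-shA1 and -0.80 in OIS-shA1. With the CDKN2B start bin the scores were 0.58, -0.30, 0.52 and -0.37. Growing and senescent maps were far apart in both, and shA1 maps lay by their counterparts without the hairpin. These pairs of A bins, about 0.4 and 0.6 Mb apart, therefore went from above to below the mean of the distance with RAS in either background. The 3 bins that lie for the most part in MLLT3 or FOCAD, also A bins in Grow, had a mean difference with the locus of -0.28 without shA1 and -0.30 with it.

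Contact across the locus, of the 10 upstream with the 10 downstream bins, had a mean score of -0.094 in Grow, -0.84 in OIS, -0.077 in Grow-shA1 and -0.76 in OIS-shA1. The RAS difference was -0.75 without shA1, with 95 of 100 pairs lower, and -0.68 with it, with 95 of 100 pairs lower. The interferon bins and the gene-poor flank, of which 2 of 3 and 10 of 10 were B in Grow, had 0.44, -0.50, 0.50 and -0.36 in the same order of maps.

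The gene-poor flank also met itself less in senescence. Its 45 pairs of different bins had a mean score of 0.97 in Grow (SD 0.38), 0.071 in OIS (SD 0.40), 0.93 in Grow-shA1 (SD 0.37) and 0.50 in OIS-shA1 (SD 0.45). All 45 pairs were lower in OIS than in Grow, and 41 of 45 were higher in OIS-shA1 than in OIS. The RAS difference was -0.90 without shA1 and -0.44 with it. Over all local B-B pairs of the genome the values were -0.25 and -0.081. The upstream flank showed no such gap between the backgrounds, with RAS differences of -0.39 and -0.39 over its own 45 pairs.

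Distal contacts were pairs over 2 Mb apart on chromosome 9, split by the compartment of the partner in Grow. The CDKN2A bin met distal B bins with a mean score of 0.21 in Grow, -0.29 in OIS, 0.15 in Grow-shA1 and -0.057 in OIS-shA1 (201 pairs with a value in every map). Of all 4 maps, OIS was lowest and OIS-shA1 lay between it and the growing maps. The difference of OIS from Grow was -0.49 (SD 0.68 over pairs), at percentile 2.82 of 13603 bins, whose median was -0.094 (SD 0.19). This is the value known when the locus was chosen. The CDKN2B start bin had -0.32, -0.65, -0.42 and -0.37 in the same order (183 pairs), a difference of -0.33 at percentile 12.1. Across the genome 21.3% of bins were lower and 2.72% higher by at least 0.25 in OIS than in Grow. In the window 15 of 22 bins were lower by that much, among them 2 of 2 locus bins, 7 of 10 upstream and 6 of 10 downstream bins. All 22 were below 0, but 68.9% of all bins were below -0.00092, so a negative value was common. None was higher by that much. Neighbouring bins share partners and are not independent.

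The values around the locus varied in level more than in their difference. Of the 20 flanking bins, the most negative OIS minus Grow differences were -0.50 in the bin next to MTAP on the upstream side, and -0.47 in the bin of IFNA8, IFNA1 and IFNE. Both, the last bins before the locus, were thus close to the CDKN2A bin in value. The least negative were -0.12 in the bin within MLLT3 at 20398444 to 20600657 and -0.15 in the first bin of the window. Downstream, the first bin outside the locus had -0.36, and the other 9 bins had between -0.29 and -0.18.

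**Figure D3:**
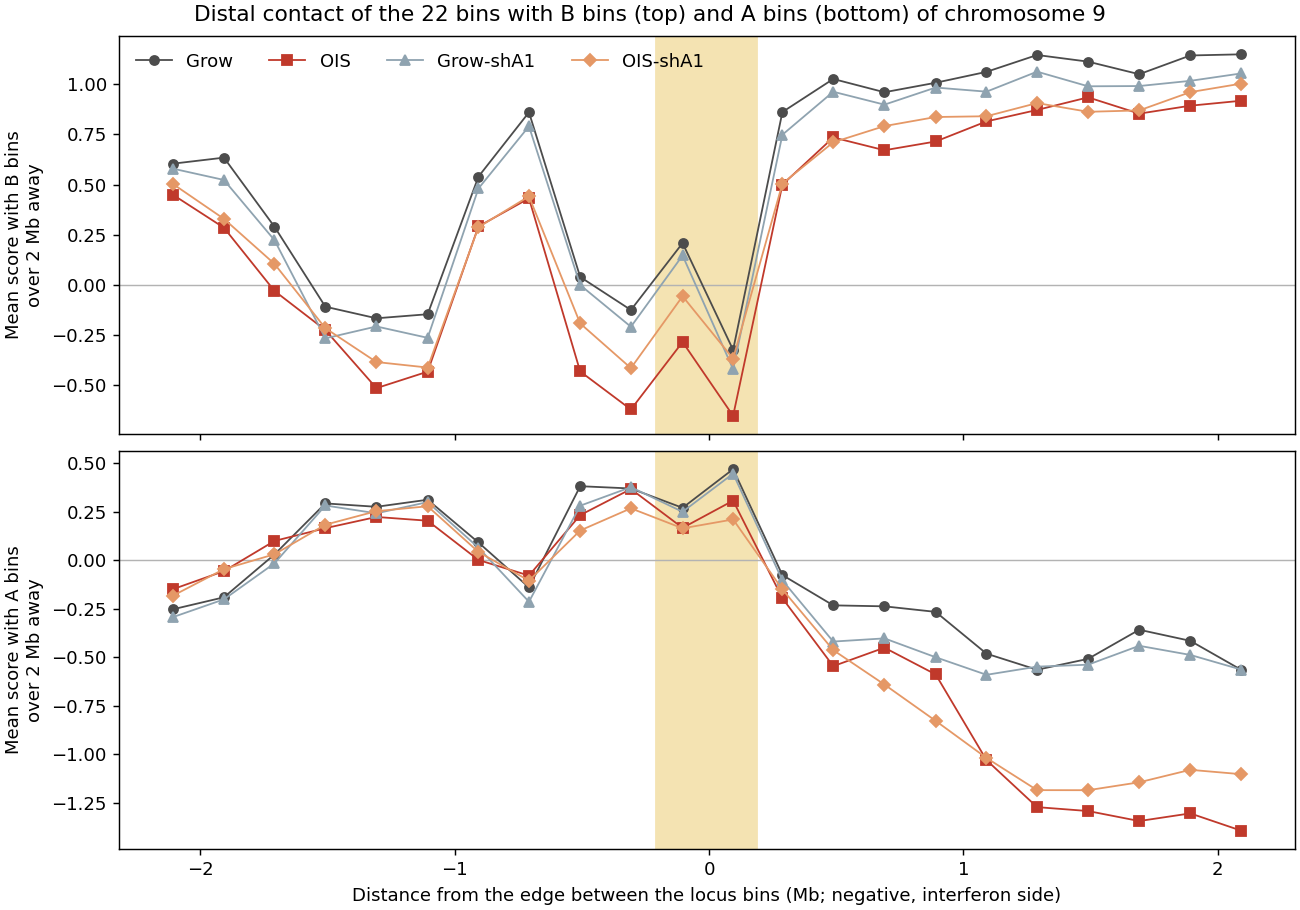
Mean contact score of each of the 22 bins with B bins (top) and A bins (bottom) of chromosome 9 over 2 Mb away, in the 4 maps, against the distance from the edge between the locus bins in Mb. The shaded band is the locus. OIS was below Grow for contact with B bins in all 22 bins, where the median difference of all bins was -0.094. The far gene-poor bins were between -1.03 and -1.40 with A bins in OIS.

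With shA1 in senescence, contact with distal B bins was higher in 19 of 22 window bins, where 63.3% of all bins were below -0.0038. The highest values were at the locus and in the 2 bins before it. OIS-shA1 minus OIS was 0.23 for the CDKN2A bin, at percentile 97.4 of all bins, and 0.29 for the CDKN2B start bin, at percentile 98.99. It was 0.24 in the bin of IFNA8, IFNA1 and IFNE and 0.21 in the bin next to MTAP. The remaining upstream bins lay between -0.0038 and 0.13. The first and second downstream bins had 0.0053 and -0.024, the other 8 lay between -0.072 and 0.12, and the genome-wide median was -0.052 (SD 0.13). In the window 1 of 22 bins, the CDKN2B start bin, was higher by at least 0.25, against 1.87% of all bins, and none was lower by that much, against 4.43%. Grow-shA1 minus Grow was -0.062 and -0.096, at percentiles 54.3 and 37.7. No window bin reached 0.25 in either direction, where 1.62% of all bins were lower and 0.25% higher by that much. The RAS difference with shA1 was -0.20 in the CDKN2A bin and 0.053 in the CDKN2B start bin. It was lower by at least 0.25 in 2 of 22 window bins, against 18.4% of all bins, and higher in none, against 3.49%. The RAS difference with shA1 minus that without was 0.29 and 0.38, at percentiles 98.1 and 99.6. This value and OIS-shA1 minus OIS both contain the OIS value on which the CDKN2A bin was selected, with its sign turned, so a low OIS value raises both and their percentiles are descriptions. The first was at least 0.25 in 4 of 22 window bins, against 3.48% of all bins, and these were both locus bins and the 2 bins before them. None was at -0.25 or less, against 0.647% of all bins.

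**Figure D4:**
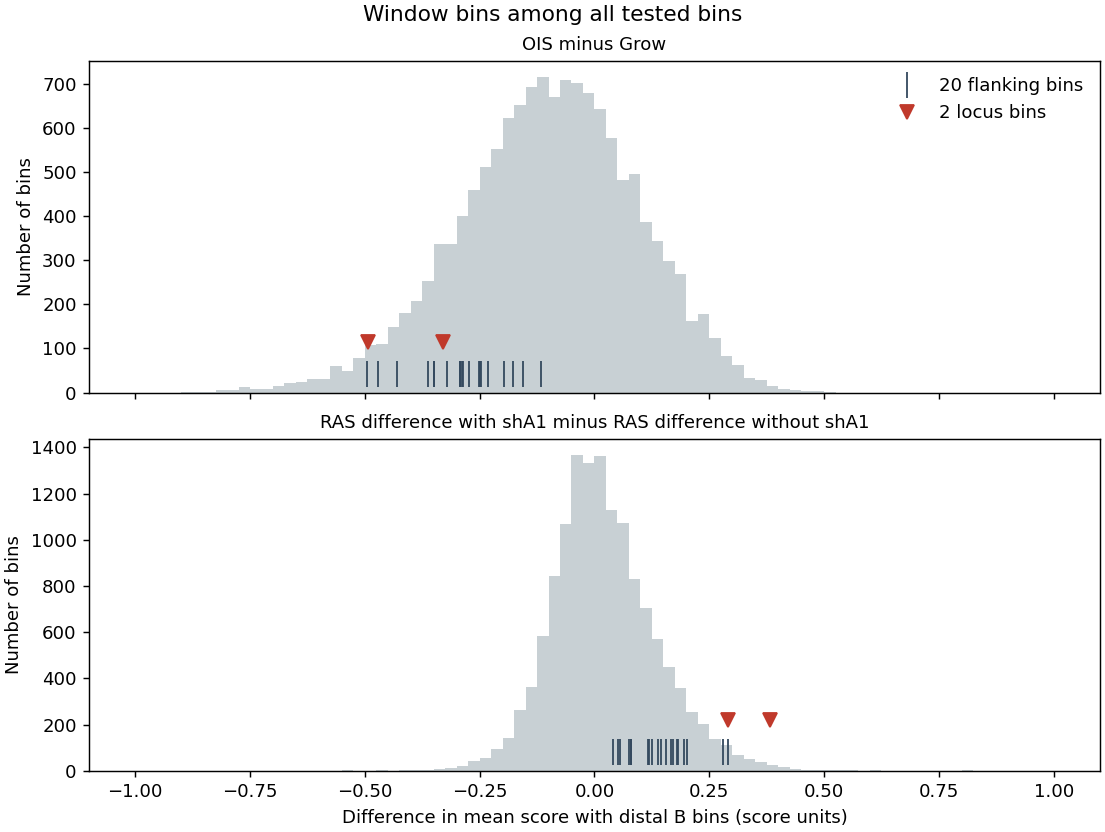
Distribution over 13603 bins of the OIS minus Grow difference in mean contact with distal B bins (top), and of the RAS difference with shA1 minus that without (bottom), in score units. The bars count bins, ticks mark the 20 flanking bins and triangles the 2 locus bins. The CDKN2A bin lay at -0.49 in the top panel, and both locus bins lay at 0.29 and 0.38 in the bottom panel.

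The difference varied with the arm of the partner, a split that was chosen after the values were seen. For both locus bins, distal B bins of the short arm had a mean score of -0.0028 in Grow, -0.60 in OIS, -0.093 in Grow-shA1 and -0.23 in OIS-shA1 (229 pairs). OIS minus Grow was -0.60 (SD 0.64), with 181 of 229 pairs lower. Distal B bins of the long arm had -0.11, -0.26, -0.17 and -0.18 (155 pairs), a difference of -0.15 (SD 0.52) with 97 of 155 lower. OIS-shA1 minus OIS was 0.37 on the short arm and 0.080 on the long arm. The 2 arms were not equally covered, since 97.0% of the possible short-arm B pairs and 49.1% of those on the long arm had a value in every map. In single maps the long-arm partners were listed for 92.6% of pairs in Grow, 80.6% in OIS, 86.4% in Grow-shA1 and 80.7% in OIS-shA1. The short arm was listed for at least 98.0% in each. What part the missing pairs have in the gap between arms was not tested.

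With distal A bins the locus differed less between maps. The CDKN2A bin had 0.27 in Grow, 0.17 in OIS, 0.25 in Grow-shA1 and 0.16 in OIS-shA1 (173 pairs). The CDKN2B start bin had 0.47, 0.31, 0.45 and 0.21 (196 pairs). The OIS minus Grow differences of -0.10 and -0.16 lay at percentiles 37.3 and 28.7 of all bins. On the short arm the A partners of both bins differed by -0.0097 (122 pairs), where the B partners differed by -0.60. On the long arm the A partners differed by -0.20 (247 pairs). On its own arm the locus thus had lower scores in OIS with B partners and much the same scores with A partners.

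The far gene-poor bins, in turn, had lower scores with A partners in the senescent maps. The last 5 bins of the window, B in each map, met distal A bins with -0.36 to -0.57 in Grow, -1.27 to -1.40 in OIS, -0.44 to -0.56 in Grow-shA1 and -1.08 to -1.19 in OIS-shA1. No value of a senescent map overlapped those of a growing map. The OIS minus Grow differences ran from -0.99 to -0.71, at percentiles of 0.11 to 1.18 of all bins, and with shA1 from -0.70 to -0.54. These bins rest on 40 to 56 pairs each, which are 17.8% to 24.9% of their possible A partners. In OIS only 28.2% to 42.2% of their possible A partners had a value, against 62.7% to 67.4% in Grow. In OIS-shA1 it was 32.0% to 39.1%, against 59.1% to 62.4% in Grow-shA1. Pairs that lacked a value in 1 map or more were left out of the mean. What part they have in the gap was not tested.

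Along chromosome 9, the 2 locus bins were averaged over blocks of 5 Mb at over 2 Mb distance, and 16 blocks had at least 50% of their pairs in every map. OIS was below Grow in 14 of 16. The mean over all pairs 11 to 200 bins apart was itself -0.096, so a small negative value does not set a block apart. Some of the 14 were less negative than this mean. The lowest difference was with the block from 25 to 30 Mb, which is B in 96.0% of its bins and gene-poor with 11 coding genes. Its score with the locus was 0.037 in Grow, -0.71 in OIS, -0.075 in Grow-shA1 and -0.12 in OIS-shA1. The difference of OIS from Grow was -0.75 (SD 0.49 over 50 pairs, 47 lower), and OIS-shA1 minus OIS was 0.59. The OIS map alone stood apart there. Next came the block from 5 to 10 Mb, with 0.39 in Grow, -0.28 in OIS, 0.32 in Grow-shA1 and 0.12 in OIS-shA1, a difference of -0.66. The block from 0 to 5 Mb had 0.35, -0.20, 0.41 and -0.17, a difference of -0.55. In this last block shA1 maps lay by their counterparts, and OIS-shA1 minus OIS was 0.027.

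The highest OIS minus Grow difference was with the block from 15 to 20 Mb, where 36.0% of bins were B. Its score with the locus was 0.26 in Grow, 0.46 in OIS, 0.28 in Grow-shA1 and 0.62 in OIS-shA1, a difference of 0.20 without shA1 and 0.34 with it. Both senescent maps were thus above both growing maps. The next ones were the blocks from 85 to 90 Mb at 0.013 and from 80 to 85 Mb at -0.062, both on the long arm and with an SD over pairs of 0.63 and 0.54. Both bins of the locus had the same sign in the 4 blocks named from the short arm, for instance -0.83 and -0.66 with the block from 25 to 30 Mb.

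**Figure D5:**
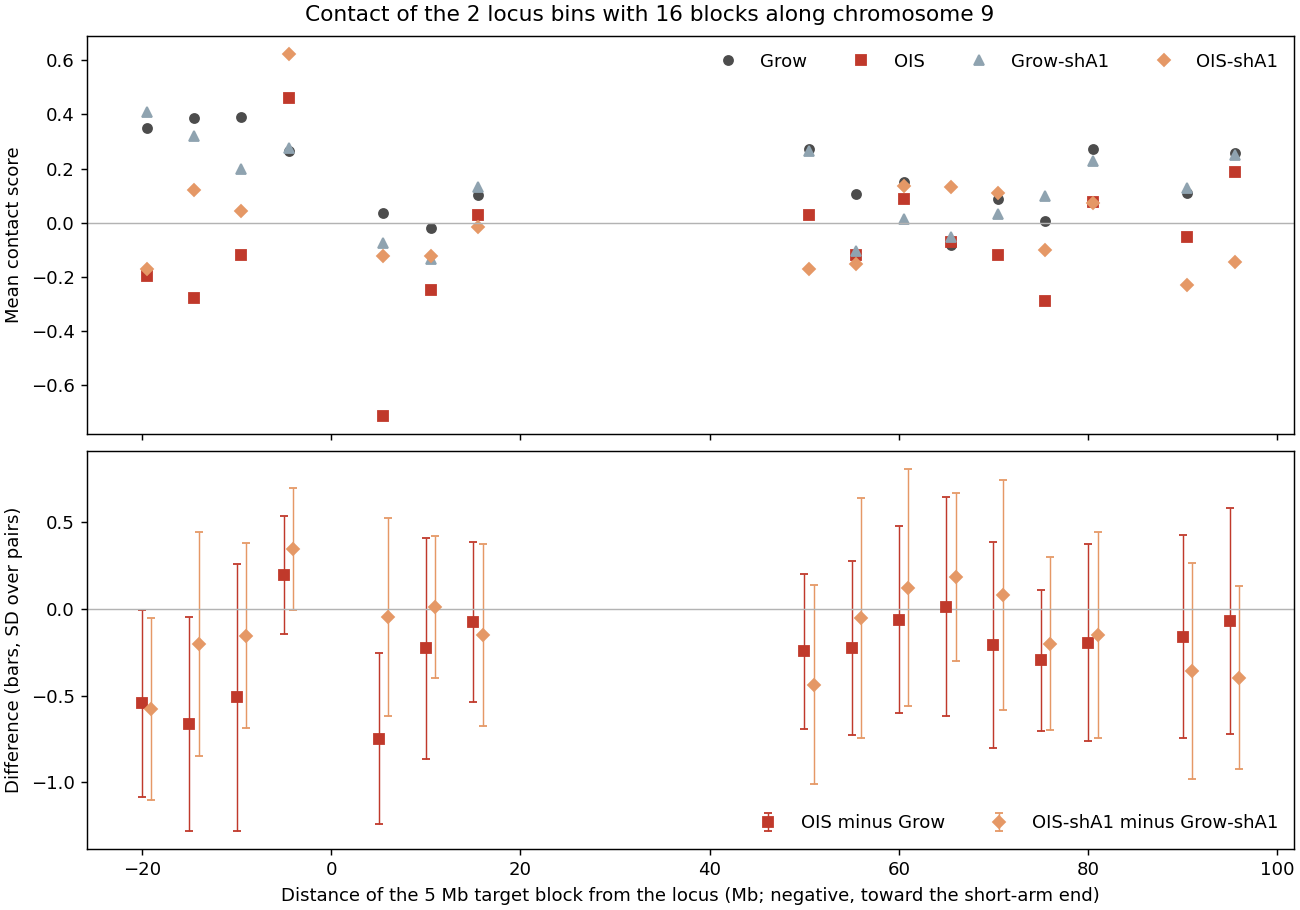
Mean contact score of the 2 locus bins with 16 blocks of 5 Mb along chromosome 9 in each map (top), and the RAS differences without and with shA1 with the SD over pairs as bars (bottom), against the distance from the locus in Mb. In the top panel the OIS value with the block about 5.5 Mb downstream was -0.71 and the other 3 maps were between -0.12 and 0.037.

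What the partners on the short arm share was described by the correlation of their values over 173 bins, which are neighbours and were read from the same maps. The OIS minus Grow difference of the locus with a short-arm bin had a Pearson's r of 0.49 with the GC content of that bin and 0.49 with its compartment score in Grow. For OIS-shA1 minus OIS the values were -0.41 and -0.48. For OIS-shA1 minus Grow-shA1 they were 0.11 and 0.040. On the long arm, over 157 bins, the OIS minus Grow values were -0.017 and -0.13. On its own arm the locus hence had lower contact in OIS with bins that were AT-rich and had low compartment scores. Both properties are linked on chromosome 9, with an r of 0.46 in Grow, and cannot be told apart here. Both orderings were weak in the RAS difference with shA1.

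The distal B contact of the locus was set beside that of other genes of the same pathway, placed by their start of transcription. Of 13 genes for CDK inhibitors, cyclins, their kinases, RB1, E2F1 and MDM2, 10 lay in a bin with a value. In OIS minus Grow 2 were lower by at least 0.25 and none higher, against 21.3% lower over all bins, with a median of -0.0059. They were MDM2, the ubiquitin ligase that p14ARF inhibits, at 0.082 in Grow and -0.48 in OIS, and CCND2, which encodes cyclin D2, at 0.35 and 0.058. With shA1 3 of 10 were lower, against 18.4% of all bins, MDM2 by -0.49, CCND2 by -0.37 and CDKN1C, the gene of p57KIP2, by -0.28. CDK4 and CDK6, which encode the targets of p16INK4A, differed by -0.011 and -0.00092 in OIS minus Grow, and RB1 by -0.17. Of the 5 genes for Polycomb proteins or their counterpart KDM6B, all with values, none passed 0.25 in any comparison, where 21.3% of all bins were lower in OIS minus Grow and 18.4% in the RAS difference with shA1. Their OIS minus Grow differences ran from -0.091 for SUZ12 to 0.15 for KDM6B.

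For the shA1 data the paper gives read totals after artefact removal, and the total was lower for OIS-shA1 than for Grow-shA1. For the Grow and OIS maps depth could only be judged from the pairs that a map lists. What part depth has in the differences was not tested. The maps listed 4631800 pairs in Grow, 4123451 in OIS, 4358563 in Grow-shA1 and 4032189 in OIS-shA1, so both senescent maps were the sparser ones. For the distal partners of the locus, 95.3%, 86.8%, 91.1% and 87.4% of pairs were listed. The maps hold no expression values, so the identity of the cells, the knockdown of HMGA1 and the activity of CDKN2A could not be checked in them.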

How the data were processed

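Per the study's methods and the submitters' processing notes, the authors used HiC-Pro on hg19, filtered out artefacts and duplicate pairs, binned contacts at about 200 kb, balanced the matrices (ICE) and corrected for distance. The deposited value of a bin pair is a score relative to the mean at the same distance. Its log base and prior are not given in the sources used here. No counts per bin pair are given, so the counting error is unknown, as is the depth of the Grow and OIS maps. Replicates were pooled in 1 map per shA1 condition.

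Bins entered if each of the 4 maps listed 50% or more of their pairs with covered bins (13606 of 14310 bins on the autosomes and X). Compartments came from the first principal component of the correlation matrix of a chromosome, oriented by coding genes (GENCODE, GRCh37), and those of Grow were used throughout. Means were taken over pairs listed in every map, with at least 10 distal B pairs per bin (Python 3.11.15, numpy 2.4.6, pandas 2.3.3). The code was tested on simulated maps. All 24 chromosome ends of the bin list equal GRCh37, and 99.9% of 14420 inner bin edges lie at AAGCTT. The members, gene lists and the limit of 0.25 were chosen with earlier results of these data known. The text names the genes with a start in the window, the 3 highest and 3 lowest blocks, the 2 highest and 2 lowest flanking bins, and pathway genes past 0.25. CDK4, CDK6, RB1, SUZ12 and KDM6B fall outside this rule and were chosen after their values were seen. Alternatives changed the scaling, centring, pairs, compartments, distance, flank width and locus bins. Another gene of the pathway list is not reported here.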

Additional observations from a re-analysis of the deposited data

Results flagged for a closer look

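The difference between maps with and without shA1 had opposite directions in senescent and in growing cells for 2 measures of the locus. The mean score of the locus with distal B bins was higher by 0.255 in OIS-shA1 than in OIS, whereas Grow-shA1 minus Grow was -0.0783. The mean score with the gene-poor flank was higher by 0.281 in OIS-shA1 than in OIS, and Grow-shA1 minus Grow was -0.109. With 1 map per condition neither difference was tested, and the data set cannot be told apart from shA1 in either.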

How the results depend on the processing

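Of 200 values under other settings, 166 kept their direction and moved by under 1.5 times or under 0.05 units. Of the rest, 24 moved by more and 10 changed sign. Some of the 166 repeat the main value by construction and show nothing about stability. With both flanks and across the locus, 100% of pairs were listed in every map. There, all pairs listed in each map and unlisted pairs as 0 gave the main values again. OIS minus Grow stayed at -0.941 for the gene-poor flank, -0.286 for the upstream flank and -0.746 across the locus. None of the 40 OIS minus Grow values changed sign, but such repeats are among them. Where a value moved, the cause was not tested.

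For distal B contact, OIS minus Grow was -0.245 with unlisted pairs as 0, OIS-shA1 minus OIS 0.164 and the difference of RAS differences 0.197. Grow-shA1 minus Grow was -0.130 with the compartments of each map. OIS-shA1 minus Grow-shA1 was -0.0228 with common centring and -0.204 for the CDKN2A bin alone. For distal A contact, OIS minus Grow was -0.310 and OIS-shA1 minus Grow-shA1 -0.328 after division by the SD at the same distance. The CDKN2A bin alone gave -0.0853 for the latter, -0.0024 for OIS-shA1 minus OIS and, with a changed sign, 0.0181 for the difference of RAS differences. Grow-shA1 minus Grow also changed sign, to 0.0364 with common centring and 0.0134 with the compartments of each map.

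For the upstream flank, OIS minus Grow was -0.135 with common centring and -0.446 with flanks of 5 bins. OIS-shA1 minus OIS changed sign to -0.0072 for the CDKN2A bin alone. Grow-shA1 minus Grow was 0.0765 with common centring and 0.0863 for the CDKN2A bin, and OIS-shA1 minus Grow-shA1 was -0.175 and -0.426 in these settings. The difference of RAS differences changed sign to -0.0097 after division by the SD, -0.0399 with common centring and -0.0935 for the CDKN2A bin. For the gene-poor flank, flanks of 5 bins gave OIS minus Grow as -0.572, OIS-shA1 minus OIS as 0.0179, Grow-shA1 minus Grow as -0.252 and OIS-shA1 minus Grow-shA1 as -0.302. The last was -0.345 after division by the SD. Grow-shA1 minus Grow was -0.0555 with common centring and -0.0304 for the CDKN2A bin. Across the locus, flanks of 5 bins turned OIS-shA1 minus OIS to -0.185, Grow-shA1 minus Grow to -0.101 and the difference of RAS differences to -0.0841, and common centring gave 0.0137 for the last.

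At a limit of 0.4 in place of 0.25, 4 window bins were lower in OIS than in Grow, and 0 were past it in OIS-shA1 minus OIS, in OIS-shA1 minus Grow-shA1 and in the difference of RAS differences. The exact share of all bins past 0.4 was not computed, so percentiles of nearby values serve as the background. In OIS minus Grow, 5.03% of all bins were below -0.43 and 9.05% below -0.36. In OIS-shA1 minus Grow-shA1, 2.37% were below -0.49 and 7.37% below -0.37. In OIS-shA1 minus OIS, 98.99% were below 0.29, and in the difference of RAS differences 99.6% were below 0.38. No paired analysis was possible because the replicates of a condition were pooled in 1 map, and for that reason leaving out a replicate was not run. The maps limit the resolution to about 200 kb, and rare pairs of the sparser senescent maps are not listed.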
